A study of Homo sapiens with 8 samples.

Results

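H3122 is a human lung adenocarcinoma cell line whose growth depends on EML4-ALK, a fusion that makes the ALK receptor tyrosine kinase active without its ligand. The 3 parental H3122 arrays, of 8 in the series, compare cells left untreated, cells given crizotinib at 1000 nM for 6 h and cells given ceritinib at 1000 nM for 6 h. All were grown in RPMI with 10% fetal bovine serum, and each condition has 1 array. The sources used here do not state whether untreated cells received a vehicle. The other arrays hold the ceritinib-resistant derivatives H3122-LR2 (untreated, crizotinib and ceritinib) and H3122-LR3 (untreated and ceritinib) at that same dose and time. For each gene the untreated signal was subtracted from that with each inhibitor, and the genes described are those that differed in 1 direction with both. At a 2-fold threshold these were 114 of 10527 genes tested, 68 lower and 46 higher than untreated.

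An active ALK kinase feeds the RAS, RAF, MEK and ERK cascade, the PI3K and AKT pathway and STAT3. ERK switches on transcription factors of the EGR, AP-1 and ETS families, and also genes that brake the cascade, the DUSP phosphatases and the Sprouty and SPRED proteins, whose mRNAs are short-lived. AKT keeps FOXO factors out of the nucleus, so FOXO target genes are known to come on when PI3K signalling stops. Crizotinib and ceritinib are both ATP-competitive inhibitors of ALK. Crizotinib also inhibits MET and ROS1, and ceritinib also inhibits the IGF1 and insulin receptors.

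Signals are deposited log2 values, so a difference of 1 or -1 is a 2-fold difference. A signal of 5.36, the 50th percentile of all probe sets, served as the floor above which a gene was counted as measured, and 7605 of 18132 genes on the array were too dim. Median signal lay between 5.34 and 5.36 on the parental arrays. The median difference over all genes tested was 0.04 with crizotinib and 0.02 with ceritinib. The signal at the 3' end of GAPDH minus that at its 5' end was -0.08 untreated, -0.06 with crizotinib and -0.11 with ceritinib. All 6 epithelial markers, EPCAM, CDH1 and 4 keratins, were above the floor on the parental arrays, between 10.40 and 13.77, and summed to 41817 linear units untreated, 38378 with crizotinib and 37626 with ceritinib. Of 9 lung lineage markers 7 were measured, and the list summed to 4881, 6428 and 6788 linear units. Most of that sum is FOXA1, at 11.45, 11.88 and 11.92, and NKX2-1, at 10.64, 11.08 and 11.25. NAPSA, at 6.78, 6.88 and 6.79, and the surfactant gene SFTPA1, at 6.83, 6.72 and 6.63, did not rise with it. None of 10 fibroblast markers exceeded the floor. Of 9 leukocyte markers on the array 2 did, CD68 and TYROBP, and their list summed to 221 linear units untreated, 212 with crizotinib and 210 with ceritinib. Of 7 endothelial markers 3 did, with sums of 267, 294 and 290. The part of the marker sums in the results below was not tested.

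With both inhibitors the largest differences lay below untreated, and many were in genes that ERK is known to switch on. DUSP6 was on average 26.9-fold lower, CXCL8 17.0-fold and PHLDA1 8.91-fold. EGR1, SPRY4 and SHISA2, which is in none of the lists, were also among the largest, with differences of -3.82 and -4.41, -3.26 and -2.99, and -3.07 and -3.45. Their treated arrays lay below the floor defined above, so their sizes and their rank are uncertain. The genes that were higher had smaller differences, led by PRR15L at 4.35-fold, SLC2A12 at 4.10-fold and the FOXO-associated genes KLHL24 at 3.69-fold and FBXO32 at 3.52-fold. The untreated signal of SLC2A12 lay below the floor, so its size and rank are uncertain too. The 68 lower genes are 0.646% of all genes tested and the 46 higher genes 0.437%. Past 4-fold with both inhibitors lay 16 lower genes and 1 higher gene, PRR15L. At 1.5-fold the counts were 228 lower (2.17%) and 231 higher (2.19%). No gene passed 2-fold in opposite directions with the inhibitors. Both differences are taken from the same untreated array, so an error on that array would appear in both, and the count of agreeing genes is not replication.

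**Figure D1:**
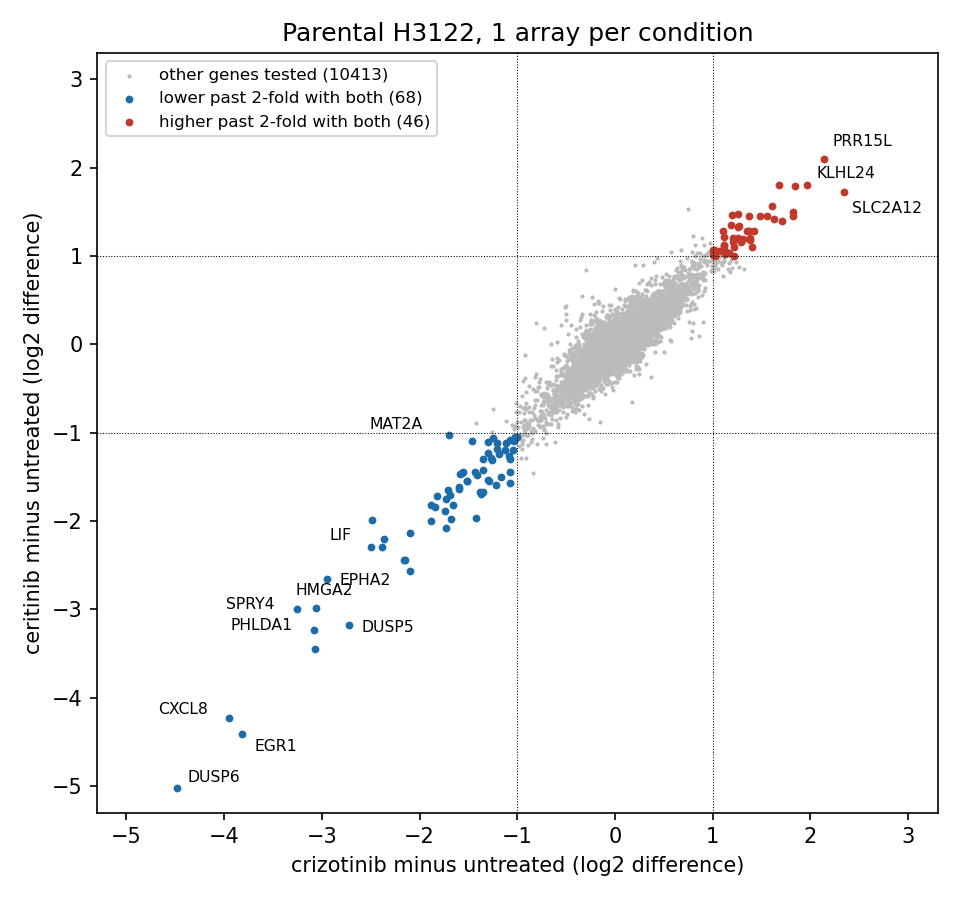
Log2 difference from untreated with crizotinib (horizontal axis) and with ceritinib (vertical axis) for each of 10527 genes in parental H3122 cells, 1 array per condition, with dotted lines at 2-fold. The 68 lower genes (blue) reach -4.48 and -5.02 at DUSP6, and the 46 higher genes (red) stay at or below 2.34 and 2.10. Both axes share the untreated array.

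The linear model of limma, which took its error from crizotinib against ceritinib within the parental and LR2 lines, called 0 genes higher (0%) and 0 lower (0%) at a Benjamini-Hochberg adjusted p under 0.05. The smallest adjusted p of limma was 0.142, and 1849 genes had an unadjusted p under 0.05. For DUSP6 the limma estimate was -4.75 ± 1.59 (SE; 2 inhibitor arrays against 1) with an adjusted p of 0.229. For EGR1 it was -4.12 ± 0.72 with an adjusted p of 0.142 by limma. In LR2 cells DUSP6 had a signal of 7.26 with crizotinib and 11.51 with ceritinib, and this gap enters the error of the model. The directions and sizes below are therefore values of single arrays, and none of them passed a test. The signal per array is a bulk measure, in which fewer cells of a kind and less RNA per cell cannot be told apart.

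Of the DUSP phosphatases measured, not all of which act mainly on ERK, DUSP6 and DUSP5 were lower past 2-fold. DUSP6, a cytoplasmic phosphatase specific for ERK, had a signal of 12.41 untreated, 7.93 with crizotinib and 7.39 with ceritinib. DUSP5, its nuclear counterpart, was at 7.99, 5.27 and 4.81, so that both treated arrays were at or below the floor and the difference may be compressed. DUSP4, also nuclear, was at 9.64, 8.80 and 8.69, which lies inside 2-fold with both. In these 3 genes ceritinib was the lower of the inhibitors. The untreated array stood above both treated arrays, which for DUSP6 and DUSP5 follows from their being past 2-fold. The other 6 phosphatases measured, DUSP1, DUSP8, DUSP9, DUSP10, DUSP14 and DUSP16, lay between -0.24 and 0.45. The list of 9 measured of 11 thus had 2 members lower past 2-fold and a median difference of -0.03 with each inhibitor.

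Sprouty and SPRED proteins block receptor signalling to RAS and RAF. SPRY4 had a signal of 7.07 untreated, 3.81 with crizotinib and 4.08 with ceritinib, the treated arrays being below the floor. Another of its 3 probe sets went the other way, but below the floor, at 2.98, 3.12 and 3.27. SPRY1 was at 8.83, 7.17 and 7.01, and SPRY2 at 8.58, 7.07 and 7.03. SPRED1 was at 9.35, 7.62 and 7.60, while SPRED2, at 9.61, 8.67 and 8.53, passed 2-fold with ceritinib and missed it with crizotinib by 0.06. ERRFI1, an inhibitor of the EGF receptor family that binds the kinase domain, was at 11.61, 9.77 and 9.77. LRIG1, which promotes the breakdown of EGF receptors, went the other way, at 8.27, 9.40 and 9.29. Of the 13 feedback inhibitors measured of 16 listed, 5 were lower and 1 higher past 2-fold, and the median was -0.44 with crizotinib and -0.50 with ceritinib against 0.04 and 0.02 over all genes.

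EGR1, an immediate early zinc finger factor, is switched on through serum response elements that ERK reaches by phosphorylating ELK1. Its signal was 8.82 untreated, 5.0 with crizotinib and 4.41 with ceritinib, above the floor untreated and below it on both treated arrays. NAB2, a corepressor of EGR1 that EGR1 itself induces, was at 6.63, 5.34 and 5.08; it was singled out after its values were seen. The stretch of the EGR1 promoter in RefSeq (GRCh38.p14) with the CArG boxes, the core of the serum response element, is shown because EGR1 is the only member with 2 of them. Capitals mark the CArG boxes, which begin 105 and 83 bases before the annotated start.
EGR1, chr5:138465349-138465430, plus strand: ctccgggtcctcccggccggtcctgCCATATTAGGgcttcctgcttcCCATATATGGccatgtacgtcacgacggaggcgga
Of 8733 genes tested with a promoter in the table, 88 (1.0%) held a CArG box on either strand in the 250 bases before the start, and 4 held at least 2. Among the members 48 lower and 37 higher genes had a promoter there, 85 of 114 in all. EGR1 was the only one of the 48 lower genes with the box (2.1%), and CYP1A1 the only one of the 37 higher genes (2.7%). A match is a description of these letters and no evidence of binding.

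Other immediate early genes were lower by less. IER3, a survival factor, was at 11.00 untreated, 9.12 with crizotinib and 9.0 with ceritinib. KLF10 was at 8.45, 7.10 and 7.15. TRIB1, a pseudokinase, was at 9.01, 7.58 and 7.57, and CCN2, a matricellular protein and target of YAP, at 7.15, 5.05 and 4.59. All 4 are described because they were lower past 2-fold with both inhibitors, so the direction was fixed by that choice. Their treated arrays lay at least 1.30 below the untreated one. The list of 21 measured of 26 had 5 members lower past 2-fold, 0 higher, and medians of -0.42 and -0.39.

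Among ETS factors, ETV5 passed 2-fold, at 8.01 untreated, 6.41 with crizotinib and 6.37 with ceritinib. ETV1 was at 6.48, 5.59 and 5.45, past 2-fold with ceritinib alone, and ETV4 at 7.94, 7.58 and 7.56. These 3 form the PEA3 subfamily, which MEK signalling is known to hold up. EHF, an epithelial ETS factor, lay on the other side at 9.06, 10.04 and 10.11, just outside 2-fold. The median over 15 ETS genes was 0.01 with crizotinib and 0.03 with ceritinib, so the list as a whole sat at the level of all genes.

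The AP-1 family split. JUNB was at 8.19, 7.17 and 7.14 and MAFF, a small MAF protein, at 5.86, 4.67 and 4.62. FOSL1, which ERK stabilises, was at 5.85, 5.08 and 5.04. FOS was at 6.61, 5.86 and 5.79 by its brightest probe set, differences of -0.75 and -0.82, while its other 3 probe sets gave -2.98 and -3.15, -1.26 and -1.36, and -2.46 and -1.83. JUN was at 6.91, 6.46 and 6.55. FOSL2, in contrast, was at 7.33, 9.15 and 8.83, one of the largest differences among the higher genes, and its 5 probe sets had the same sign. Of 11 members measured 2 were lower and 1 higher past 2-fold, with medians of -0.56 and -0.67.

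FOS and JUN dimers bind the letters TGANTCA, and CREB and ATF1 bind TGACGTCA, in which the AP-1 letters do not occur. In the 250 bases before the start, TGANTCA on either strand was found in 7 of 48 lower genes (14.6%), 3 of 37 higher genes (8.1%) and 338 of 8733 genes tested (3.9%). TGACGTCA was found in 2 of 48 lower genes (4.2%), EPHA2 and MAFF, in 0 of 37 higher genes and in 266 of all (3.0%). CCGGAA, the ETS core, was found in 12.5% of lower, 5.4% of higher and 26.1% of all promoters. Not shown are TGANTCA matches in the lower genes ARRDC4, CCDC160 and TMEM156 and in the higher genes COLCA1, KLHL24 and SLC2A12. The 6 windows below show the matches, in capitals, in lower genes of the secreted, protease, adhesion and receptor groups described next and in MAFF.
CXCL8, chr4:73740407-73740463, plus strand: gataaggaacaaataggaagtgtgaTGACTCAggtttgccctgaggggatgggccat
MMP10, chr11:102780664-102780720, minus strand: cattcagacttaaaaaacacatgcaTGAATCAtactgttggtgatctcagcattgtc
PLAUR, chr19:43670324-43670380, minus strand: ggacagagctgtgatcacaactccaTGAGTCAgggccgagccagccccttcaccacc
AMIGO2, chr12:47080151-47080201, minus strand: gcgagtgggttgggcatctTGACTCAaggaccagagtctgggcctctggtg
EPHA2, chr1:16156088-16156145, minus strand: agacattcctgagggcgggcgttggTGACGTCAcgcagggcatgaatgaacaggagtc
MAFF, chr22:38201915-38201972, plus strand: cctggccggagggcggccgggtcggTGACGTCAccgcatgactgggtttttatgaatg
The shares rest on 85 promoters with a table entry and were not tested.

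Genes that MEK inhibition is known to lower in tumour cells formed the list with the lowest median, -1.03 with each inhibitor. Of 26 measured of 30, 12 were lower past 2-fold, 19 lower past 1.5-fold and 0 higher at either. The list was chosen with earlier results of these data known, so its direction is not independent evidence. PHLDA1, a pleckstrin homology protein that restrains receptor signalling, was at 9.70 untreated, 6.62 with crizotinib and 6.47 with ceritinib, and PHLDA2 at 9.72, 7.62 and 7.58. HMGA2, a chromatin protein of fetal tissue, was at 8.16, 5.10 and 5.18, and its other 5 probe sets lay below the floor with differences near 0. TNFRSF12A, the receptor for TWEAK, was at 9.51, 7.63 and 7.69. PLK2, a stress-induced kinase, was at 8.09, 5.71 and 5.80. MYC was at 10.22, 9.28 and 9.28, inside 2-fold with both. Crizotinib and ceritinib arrays differed by at most 0.15 in each of these genes. All but MYC were past 2-fold with both inhibitors, so their untreated array stood apart from both by that choice.

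**Figure D2:**
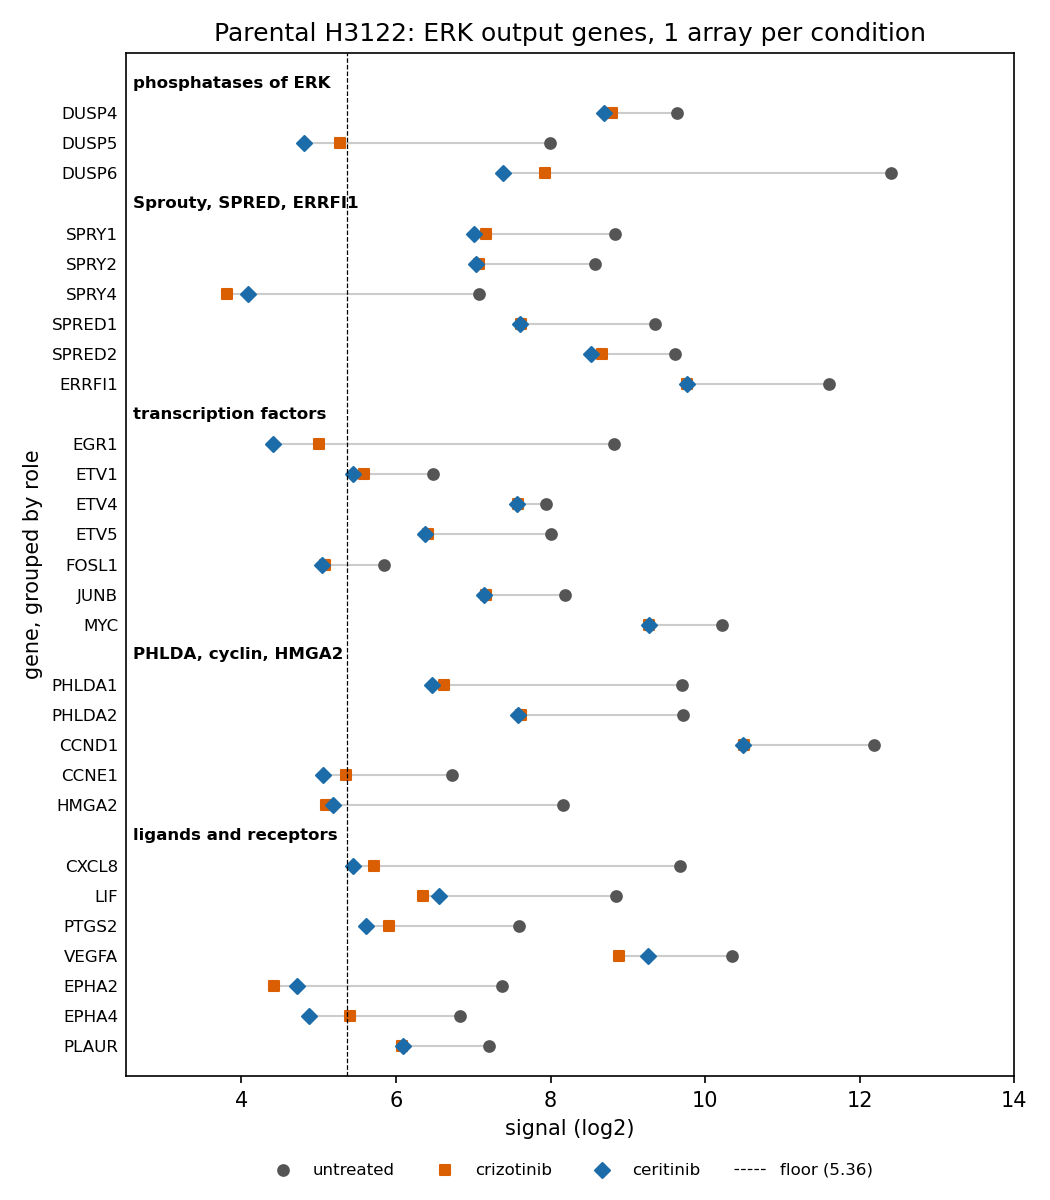
Log2 signal of 28 genes of the ERK output, grouped by role, untreated (grey circle), with crizotinib (orange square) and with ceritinib (blue diamond) in parental H3122 cells, 1 array each. The dashed line is the floor of 5.36. The genes are a selection from the lists, and members that were higher, such as FOSL2 and LRIG1, are not drawn. By that choice the untreated value is the highest of the 3 for every gene drawn. The genes range from DUSP6, at 12.41 against 7.93 and 7.39, to ETV4, at 7.94 against 7.58 and 7.56.

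Secreted factors had some of the largest differences. CXCL8, the neutrophil chemokine interleukin 8, was at 9.67 untreated, 5.72 with crizotinib and 5.44 with ceritinib. LIF, a cytokine that signals through STAT3, was at 8.85, 6.35 and 6.56. PTGS2, the inducible cyclooxygenase, was at 7.59, 5.91 and 5.61, and CXCL2 at 6.53, 5.31 and 4.94. VEGFA, the angiogenic factor, was at 10.35, 8.89 and 9.26, and GDF15, a stress cytokine, at 12.23, 11.19 and 11.04. On the other side FGF9 was at 5.89, 7.0 and 6.84 and VEGFC at 6.20, 7.06 and 7.12, neither past 2-fold with both. Of 17 measured of 30 listed, 6 were lower past 2-fold and 0 higher, with medians of -0.50 and -0.37.

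Proteases and adhesion genes that tumour cells use to move through matrix were lower as well. The collagenase MMP1 was at 10.67 untreated, 9.16 with crizotinib and 9.12 with ceritinib, and stromelysin MMP10 at 7.64, 6.37 and 6.35. PLAU, the urokinase, was at 7.93, 6.52 and 6.45 and its receptor PLAUR at 7.2, 6.08 and 6.09. Integrin ITGA2 was at 8.81, 7.73 and 7.51, and THBD, thrombomodulin, at 7.83, 5.68 and 5.39. AMIGO2, an adhesion protein, was at 9.14, 6.65 and 7.15. The list of matrix, integrin and protease genes had 5 of 20 measured members lower past 2-fold and 0 higher. Its median was only -0.13 with crizotinib and -0.18 with ceritinib, so the rest of the list lay near 0.

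Receptor tyrosine kinases were lower past 2-fold in 2 of 24 measured, both ephrin receptors. EPHA2, a receptor that ERK holds up, was at 7.37 untreated, 4.42 with crizotinib and 4.72 with ceritinib, and EPHA4 at 6.83, 5.41 and 4.87. EPHA7, outside that list, was higher, at 5.77, 6.88 and 6.90, as was EFNA1, a ligand of EPHA2, at 8.27, 9.38 and 9.49. ERBB3, a partner of ERBB2 that PI3K inhibition is known to raise, was at 8.92, 9.53 and 9.55, differences of 0.61 and 0.63. ERBB2 differed by 0.30 and 0.39, IGF1R by 0.29 and 0.39, FGFR3 by 0.15 and 0.43 and MET by -0.48 and -0.48. ALK was at 7.19, 7.39 and 7.23, and EML4, the other partner of the fusion, differed by -0.06 with each inhibitor. The probe set for ALK need not lie in the part that the fusion keeps, and its other probe set differed in sign. EGFR, at 5.37, 5.20 and 5.31, and INSR, at 4.16, 4.34 and 4.06, were too dim to test. Among 31 components of the RAS, PI3K and JAK pathways none passed 2-fold with both, against 0.646% lower and 0.437% higher over all genes. A list of this size could hold none at that share. The nearest were SOS1, the RAS exchange factor, with differences of 1.10 and 0.93 and the PI3K subunit PIK3R3 with 0.81 and 0.71.

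FOXO targets and genes of PI3K feedback stood higher as 1 list, with a median of 0.55 with crizotinib and 0.51 with ceritinib over 29 measured of 37. Past 2-fold with both were 4, all higher, and past 1.5-fold 9 higher and 1 lower. KLHL24 was at 6.64 untreated, 8.60 with crizotinib and 8.45 with ceritinib. FBXO32, the ubiquitin ligase atrogin-1, was at 6.53, 8.37 and 8.32. YPEL2 was at 6.98, 8.24 and 8.46 and YPEL3 at 7.88, 8.89 and 8.90. These 4 genes are described because they were past 2-fold with both inhibitors, so treated signals above the untreated one were fixed by that choice. Both differences also share the untreated array. The inhibitors lay within 0.22 of each other, a closeness that the choice favours. CCNG2 differed by 0.79 and 0.89 and CDKN1B, the inhibitor p27 of G1 kinases, by 0.64 and 0.67. The lower member was GADD45A, at 9.74, 8.81 and 8.83. TXNIP, a brake on glucose uptake that answers glucose as well as FOXO, differed by 0.17 with crizotinib and -0.65 with ceritinib, and so had no common direction. IRS2 differed by 0.13 and -0.08 and PIK3IP1, an inhibitor of PI3K, by 0.18 and 0.51. The other 6 probe sets of PIK3IP1 above the floor were higher too, from 0.18 and 0.25 to 1.14 and 1.29.

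The forkhead core GTAAACA on either strand was found in the 250 bases before the start of 4 of 37 higher genes (10.8%), 4 of 48 lower genes (8.3%) and 172 of 8733 genes tested (2.0%). The higher genes were HBP1, ELF5, OTUD1 and DNAJC12, and the lower genes GDF15, JUNB, TRIB2 and WWTR1, so the letters did not separate the directions. HBP1, a repressor of cell cycle genes and known FOXO target, was at 8.53 untreated, 9.79 with crizotinib and 9.73 with ceritinib. The windows of the 4 higher genes are shown, with the core in capitals.
HBP1, chr7:107168805-107168861, plus strand: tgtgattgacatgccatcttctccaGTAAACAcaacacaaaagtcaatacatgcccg
ELF5, chr11:34511886-34511942, minus strand: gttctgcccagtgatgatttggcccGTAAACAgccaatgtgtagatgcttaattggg
OTUD1, chr10:23439021-23439074, plus strand: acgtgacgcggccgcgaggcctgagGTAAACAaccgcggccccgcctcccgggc
DNAJC12, chr10:67838189-67838233, minus strand: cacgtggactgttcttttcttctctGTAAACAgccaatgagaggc
The letters CACGTG, bound by MYC and by TFEB, were found in 18.9% of higher, 6.2% of lower and 9.1% of all promoters, and TTCNNNGAA, bound by STAT factors, in 8.1%, 2.1% and 5.6%.

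The BCL2 family moved in both directions. BMF, a BH3-only protein that promotes apoptosis, was at 7.68 untreated, 8.89 with crizotinib and 8.84 with ceritinib. BCL2L11, which encodes BIM and whose loss blunts killing by kinase inhibitors, was at 7.45, 8.20 and 8.23, inside 2-fold, and 3 of its 14 probe sets went the other way. The BH3-only genes BBC3 and BIK were at 7.48, 8.11 and 8.23 and at 8.76, 9.41 and 9.49. PMAIP1, which encodes NOXA, was lower, at 8.73, 7.52 and 7.61. The survival gene MCL1 differed by -0.29 and -0.39 by its brightest probe set, and its other 5 ranged from -0.97 and -1.08 to -0.14 and -0.19. BCL2L1 differed by -0.04 and -0.02. Over 16 measured, 1 was lower and 1 higher past 2-fold, and the median was 0.04 and 0.03. TNFRSF10A, a death receptor for TRAIL, was among the 68 lower genes at 7.72, 6.37 and 6.05.

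**Figure D3:**
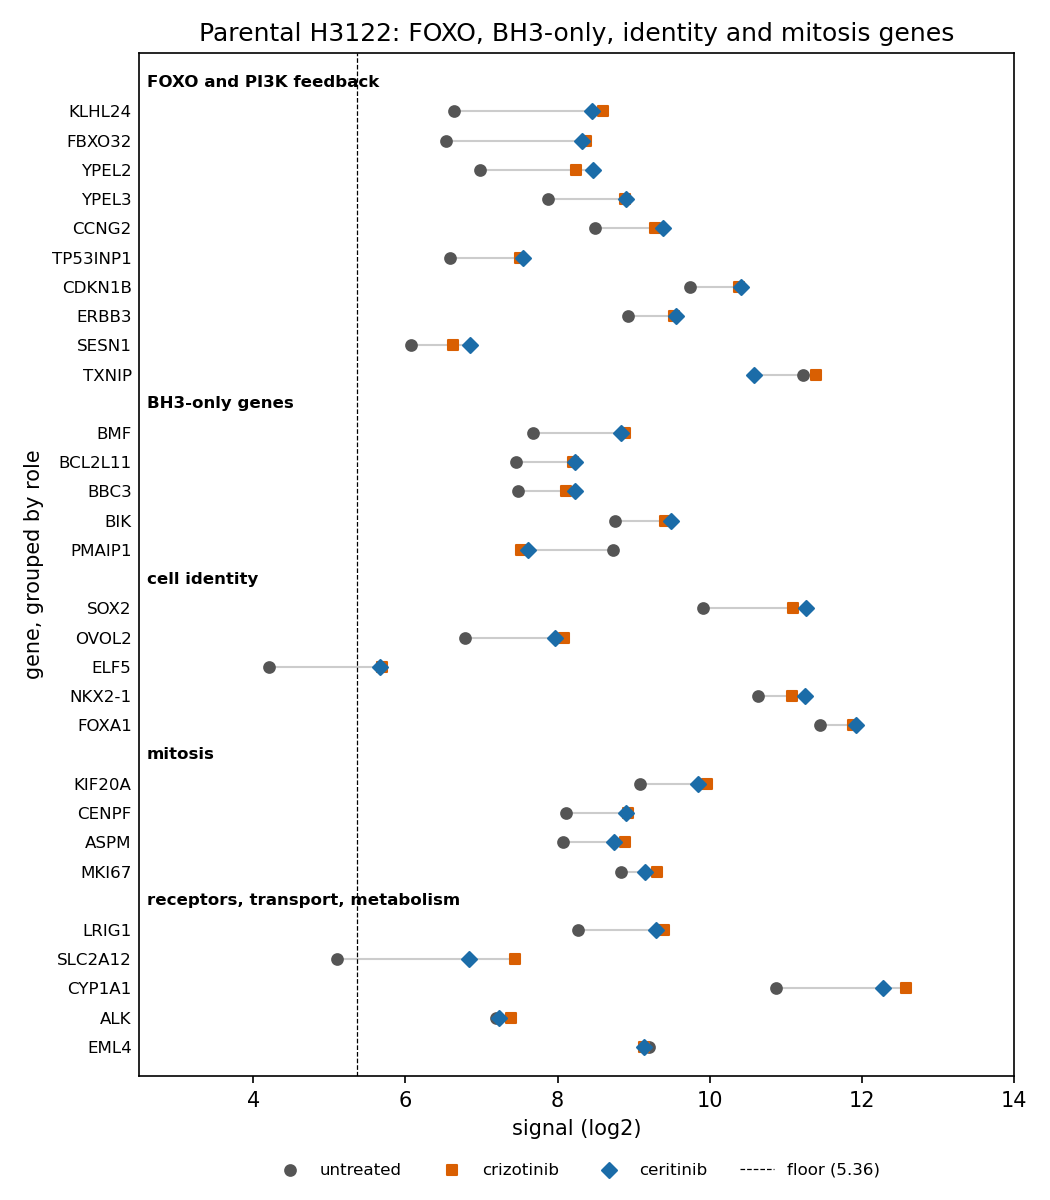
Log2 signal of 29 genes of the FOXO, BH3-only, identity, mitosis and receptor groups in parental H3122 cells, untreated (grey circle), with crizotinib (orange square) and with ceritinib (blue diamond), 1 array each, with the floor of 5.36 dashed. The genes are a selection and need not be typical of their lists. Among those not drawn are GADD45A of the FOXO list (-0.93 and -0.91) and ECT2 of the mitosis list (-0.13 and -0.09). KLHL24 went from 6.64 to 8.60 and 8.45 and PRR15L, not drawn, from 6.00 to 8.14 and 8.10, while PMAIP1 was lower with both and TXNIP lay on either side of its untreated value.

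Among G1 genes, CCND1, the cyclin D1 that ERK and AP-1 sustain, was at 12.19 untreated, 10.50 with crizotinib and 10.49 with ceritinib. CCNE1 was at 6.73, 5.35 and 5.06, and CDC25A, which activates CDK2, at 7.03, 6.23 and 5.90. CDKN1A, the inhibitor p21, was lower by 0.64 and 0.61 where CDKN1B was higher. Genes of DNA replication stayed near 0 at 6 h: over 39 measured the medians were 0.03 and 0.01, none passed 2-fold, and CDC6 alone passed 1.5-fold with both, at -0.60 with each inhibitor. Over 39 genes of G2 and mitosis the medians were 0.42 and 0.35, none passed 2-fold and 6 were higher past 1.5-fold, among them KIF20A at 0.88 and 0.76, CENPF at 0.82 and 0.79 and ASPM at 0.82 and 0.67. MKI67 differed by 0.46 and 0.31. Past 2-fold with both were 0.646% of all genes lower and 0.437% higher, and past 1.5-fold 2.17% and 2.19%. A list of 39 could hold none past 2-fold at that share.

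Genes of ribosome assembly lay below all genes, with medians of -0.33 and -0.41 over 38 measured. None passed 2-fold with both and 9 passed 1.5-fold, all lower, against 2.17% lower past 1.5-fold over all genes. BYSL was at 8.66 untreated, 7.67 with crizotinib and 7.60 with ceritinib, NOP16 at 9.86, 8.94 and 8.87 and PPAN at 7.78, 6.87 and 6.76. In the MYC network, the antagonists MXD3 and MXD4 were higher by 0.98 and 1.02 and by 0.74 and 0.71. LYAR, a nucleolar protein outside that list, was lower by 1.0 and 1.05, just inside the threshold.

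The list of the amino acid response, ATF4 and the unfolded protein response had 7 of 30 measured genes lower past 1.5-fold with both and 0 higher, with medians of -0.32 and -0.30. The chaperone HSPA5 of the unfolded protein response differed by -0.28 and -0.29 and the factor XBP1 by 0.43 and 0.28. TRIB3 was at 10.21 untreated, 8.65 with crizotinib and 8.77 with ceritinib, and CHAC1, which degrades glutathione, at 7.88, 6.28 and 6.27. The cystine carrier SLC7A11 was at 11.93, 11.17 and 11.18 and the serine synthesis enzyme PSAT1 at 11.44, 10.70 and 10.85. MAT2A, which makes S-adenosylmethionine, was at 11.26, 9.56 and 10.23. Over 27 glycolysis and hypoxia genes the medians were 0.00 and -0.06, with 4 lower and 1 higher past 1.5-fold with both. The lower were VEGFA, PFKFB3 (-1.05 and -0.91), EGLN3 (-0.92 and -0.86) and the hexokinase HK2 (-0.73 and -0.96), and the higher was KDM3A (0.68 and 0.80). SLC2A12, a sugar transporter, was higher, at 5.10, 7.44 and 6.83, with the untreated array below the floor. CYP1A1, a target of the aryl hydrocarbon receptor, was at 10.87, 12.58 and 12.27, and AHRR, the repressor of that receptor and itself its target, differed by 0.96 and 0.94. Other genes known to answer that receptor differed less: CYP1B1 by 0.79 and 0.48, TIPARP by 0.57 and 0.04, CYP1A2 by 0.11 and 0.36 and NQO1 by -0.07 and -0.14.

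Single identity genes were higher without their lists. SOX2, a factor of the foregut and of basal cells, was at 9.91 untreated, 11.10 with crizotinib and 11.26 with ceritinib. The squamous and basal list it belongs to had medians of -0.19 and -0.30 over 9 measured, with SPRR1B at -0.73 and -0.82 and KRT15 at -0.45 and -0.50. OVOL2, which holds cells epithelial, was at 6.78, 8.09 and 7.97, and ELF5, an epithelial ETS factor, at 4.21, 5.69 and 5.67, with the untreated array below the floor. ID2, a target of BMP signalling, was at 6.88, 8.0 and 8.0, the 1 member past 2-fold with both among 18 TGF-beta and BMP genes with medians of 0.04 and 0.10. ID1, another such target, was at 10.49, 9.57 and 10.11. WWTR1, which encodes the YAP partner TAZ, was lower, at 8.31, 7.10 and 7.13. NKX2-1, the lung lineage factor, differed by 0.44 and 0.61, and over 18 lung lineage and surfactant genes the medians were 0.10 and 0.04, and none passed 1.5-fold with both inhibitors. The keratins KRT7 and KRT18 lay between -0.19 and 0.02. None of 11 interferon response or 16 antigen presentation genes passed 1.5-fold with both, against 2.17% lower and 2.19% higher over all genes. Lists of this size, the 18 lung genes included, could hold none at that share.

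**Figure D4:**
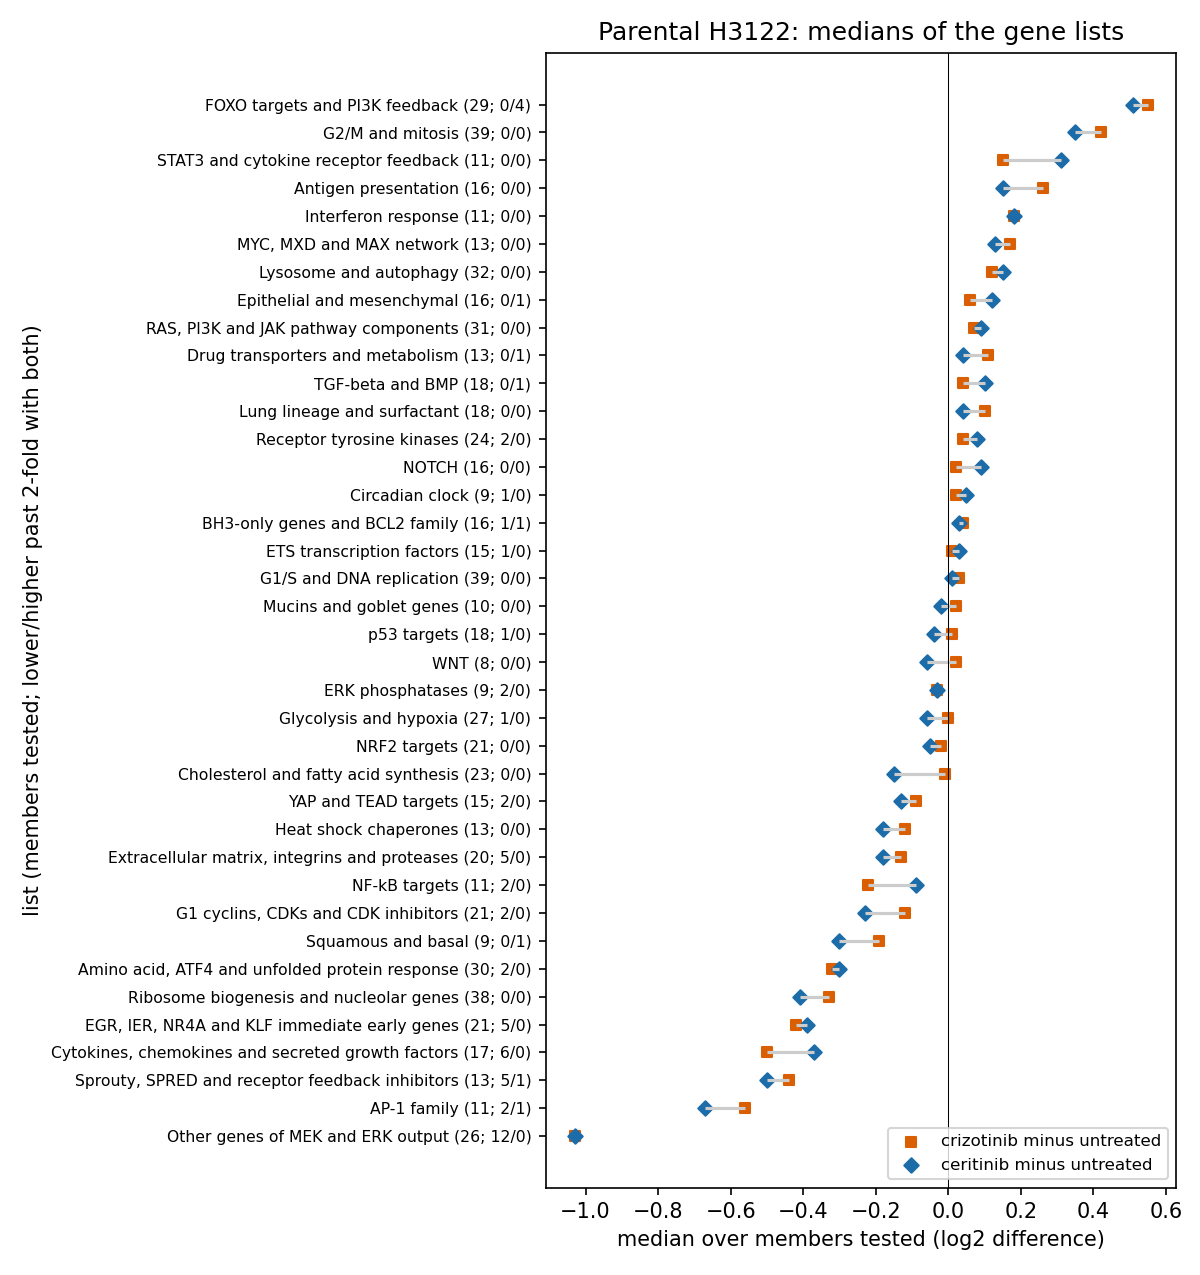
Median log2 difference from untreated over the measured members of each gene list with at least 5 of them, with crizotinib (orange square) and ceritinib (blue diamond), in parental H3122 cells. In parentheses are the members measured and the members lower and higher past 2-fold with both. The list of MEK and ERK output lies lowest at -1.03. That of FOXO targets and PI3K feedback lies highest at 0.55 and 0.51, against 0.04 and 0.02 over all genes.

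Among the remaining members, the largest differences below untreated were those of SHISA2, at 8.39 untreated, 5.32 with crizotinib and 4.94 with ceritinib, PTPRE, a receptor type phosphatase, at 8.15, 5.99 and 5.71, and ITPR1, a calcium channel of the endoplasmic reticulum, at 7.61, 5.25 and 5.41. BHLHE40, a repressor in the circadian clock, was at 8.02, 6.43 and 6.55. Above untreated, PRR15L was at 6.00, 8.14 and 8.10, PXDC1 at 4.49, 6.17 and 6.30, NPTX1 at 6.98, 8.80 and 8.44, CABLES1 at 6.38, 7.94 and 7.83 and GLCCI1 at 7.23, 8.86 and 8.65. The sialyltransferase ST8SIA4 was at 4.34, 5.95 and 5.91. Of its 4 probe sets 1 went the other way, but below the floor, at 2.26, 2.26 and 2.25. GCNT1, RNF144B and TESK2 were higher by 1.28 to 1.45. The untreated signals of PXDC1, ST8SIA4 and TESK2 lay below the floor, so the sizes of their differences are uncertain.

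Of the 114 members 83 were above the floor on all 3 parental arrays. In 15 lower genes both treated arrays were at or below the floor, and in 12 higher genes the untreated array was, so their sizes are uncertain. PLSCR4 was at or below it on all 3, at 3.70, 4.99 and 4.86. A second probe set above the floor existed for 69 members, of which 68 had the same direction with both inhibitors and 50 passed 2-fold again. The average difference of the inhibitors was inside 2-fold when all probe sets of a gene were averaged for BMF (0.76), NPTX1 (0.90), RNF144B (0.89), CABLES1 (0.92), VEGFA (-0.93), WWTR1 (-0.95), MAFF (-0.98), LRIG1 (0.98) and YPEL2 (0.99). By probe sets not marked for shared sequence it was -0.23 for PLAUR, -0.40 for EPHA4, -0.84 for CXCL2 and -0.97 for LIF. Just inside the threshold lay JUNB at -1.02 and -1.05 and DNAJC12 at 1.02 and 1.0. Just outside lay PLK3 at -1.26 and -0.99, BYSL at -0.99 and -1.06, TFAP2C at 1.06 and 0.99 and EHF at 0.98 and 1.05.

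Crizotinib took 78 genes below and 69 above 2-fold and ceritinib 95 and 64, the 114 members included in each. A further 78 genes passed with 1 inhibitor and not with the other. The 114 members were chosen because they passed 2-fold with both inhibitors, and this choice favours a small gap between them. Within the 114 the median size of the gap was 0.12, and it was at most 0.1 in 52 and over 0.3 in 20. The SD of ceritinib minus crizotinib over all genes tested was 0.143. The widest gap was that of MAT2A, which was lower by 1.70 with crizotinib and 1.03 with ceritinib. SLC2A12 was 0.61 less high with ceritinib, and EGR1, DUSP6 and EPHA4 were 0.59, 0.54 and 0.54 lower with ceritinib than with crizotinib. With 1 array per inhibitor these gaps cannot be set against an error.

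The same genes were read in the resistant lines, each against its own untreated array. In LR2 with crizotinib 58 of the 68 lower genes (85.3%) were lower past 2-fold, against 0.693% of all genes tested, and 25 of the 46 higher genes (54.3%) were higher, against 0.475%. In LR2 with ceritinib 1 of 68 (1.5%), EGR1, was lower past 2-fold, against 0.0095% of all genes, and 0 of 46 were higher, against 0.019%. In LR3 with ceritinib 0 of 68 were lower past 2-fold, as of all genes (0%), and 4 of 46 (8.7%) were higher, FBXO32, HBP1, KLHL24 and NATD1, which are the 4 genes past 2-fold there (0.038%). The median over the 68 lower genes was -1.54 and -1.60 in parental cells, -1.48 in LR2 with crizotinib, -0.27 in LR2 with ceritinib and -0.12 in LR3 with ceritinib. Over the 46 higher genes it was 1.26 and 1.21 in parental cells, 1.03 and 0.44 in LR2 and 0.39 in LR3.

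**Figure D5:**
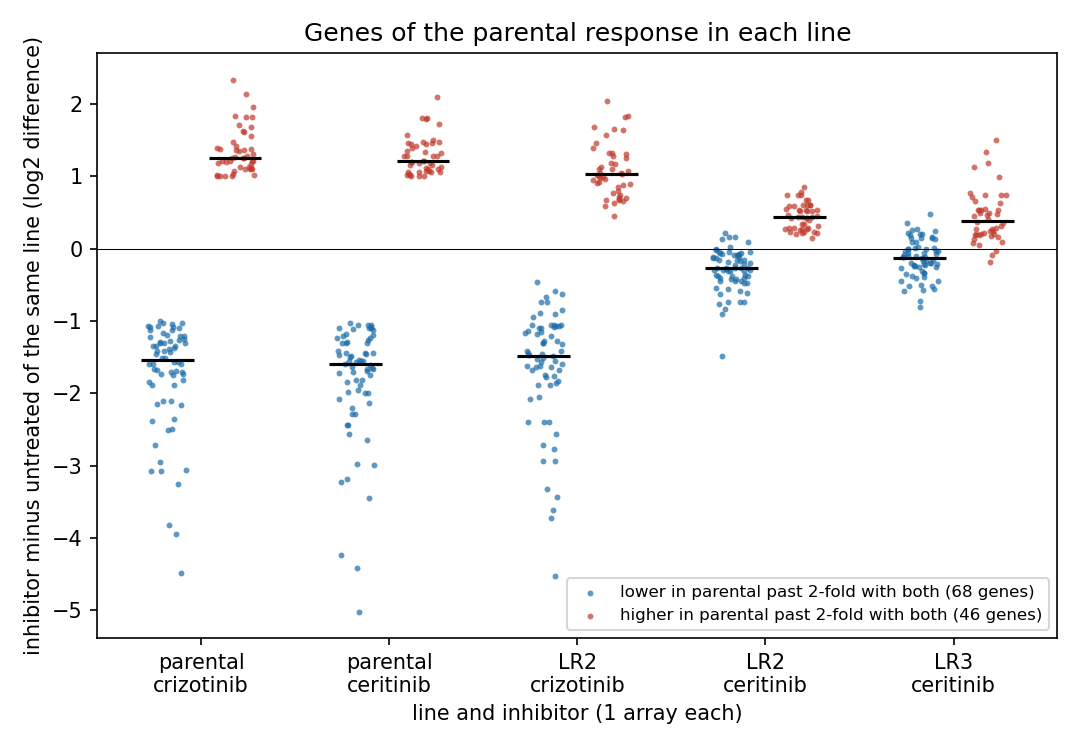
Log2 difference between inhibitor and untreated within each line for the 68 genes lower (blue) and the 46 higher (red) past 2-fold with both inhibitors in parental cells. Points are genes, each column is 1 array against the untreated array of its line, and the black bar is the median. The blue medians go from -1.54 and -1.60 in parental cells to -1.48, -0.27 and -0.12, and the parental columns are past 2-fold by choice of the genes.

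DUSP6 shows the difference between the lines gene by gene. In LR2 it was at 11.79 untreated, 7.26 with crizotinib and 11.51 with ceritinib, and in LR3 at 12.17 untreated and 12.04 with ceritinib. EGR1 in LR2 was at 8.43, 5.11 and 6.95, and in LR3 at 7.39 and 7.38. CCND1 was at 12.35, 10.57 and 12.30 in LR2 and at 12.61 and 12.39 in LR3. CXCL8 was at 8.53, 5.59 and 7.80 in LR2 and at 9.76 and 9.24 in LR3. For these ERK output genes the LR2 crizotinib array lay with the treated parental arrays, and the ceritinib arrays of both lines lay nearer to untreated. KLHL24, in contrast, was at 5.46 untreated and 6.96 with ceritinib in LR3, and at 7.21, 9.03 and 7.82 in LR2. FBXO32 in LR3 was at 5.49 and 6.68.

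The response of LR2 minus that of the parental line, with the inhibitors pooled, was called by limma in 0 genes higher (0%) and 0 lower (0%), with a smallest adjusted p of 0.998 and 251 genes at an unadjusted p under 0.05. That of LR3 minus parental was likewise called in 0 higher (0%) and 0 lower (0%), with a smallest adjusted p of 0.91 and 505 genes at an unadjusted p under 0.05. For DUSP6 the limma difference of responses was 4.62 ± 2.44 (SE) in LR3, with 1 inhibitor array there, at an adjusted p of 0.91. For EGR1 it was 4.11 ± 1.11, also at an adjusted p of 0.91 by limma. In LR2, DUSP6 differed from untreated by -4.53 with crizotinib and -0.28 with ceritinib. Pooling averages such values and counts their gap as error, so the test could miss a response lost with ceritinib alone. The gap also enters the error of the LR3 difference. No gene can thus be said to respond differently in the resistant lines by this test, nor to respond alike.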

How the data were processed

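Total RNA was purified on RNeasy columns, labelled with biotin by a 3' IVT kit and measured on 8 single-colour arrays, 1 per condition, per the labels' protocols. The table deposited by the authors gives log2 signals per probe set, made by RMA per the submitters' processing notes. Its version, the arrays normalized together and a genome build are not given in the sources used here. No further normalization was applied.

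Of 49395 probe sets, 102 were controls, 44988 had 1 gene symbol in the platform annotation, 1832 several and 2473 none. The brightest single-symbol probe set over 8 arrays stood for each gene, and a gene was tested above 5.36 (the 50th percentile) on at least 2 arrays. The model of limma 3.58.1 (R 4.3.3) had 6 cells, line by inhibitor or none, crizotinib and ceritinib counting as 1 condition, with 2 residual and 3.43 prior degrees of freedom. Its p-values measure only the spread between inhibitors and hold nothing on separate cultures. The number of arrays limits the precision. Gene lists were given counts and medians over members tested and no test.

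Named genes were the 15 largest differences past 2-fold with both inhibitors in each direction, up to 4 such members of each list, and signalling, apoptosis and control genes chosen by name. Other members of the lists and of the 114 are named for context after their values were seen. The members and lists were chosen with earlier results of these data known. Promoters are RefSeq sequences (GRCh38.p14) matched by the Entrez gene identifier of the probe set. Alternatives changed the normalization, the probe set, the filter, the threshold, the prior variance and the arrays in the fit. Nothing in the sources gives slide or scan batches, so none was tested.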

Additional observations from a re-analysis of the deposited data

Results flagged for a closer look

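In LR3 cells with ceritinib, 10 of the named lower genes had a difference of the opposite sign to both parental differences, and this was not tested. The LR3 differences from untreated were 0.48 for EPHA4 (parental -1.42 and -1.96), 0.24 for PTPRE (-2.16 and -2.44), 0.21 for SPRY1 (-1.66 and -1.82), 0.21 for MMP10 (-1.27 and -1.29) and 0.19 for THBD (-2.15 and -2.44). They were 0.16 for SPRY2 (-1.51 and -1.55), 0.15 for CXCL2 (-1.22 and -1.59), 0.15 for MAFF (-1.19 and -1.24), 0.09 for JUNB (-1.02 and -1.05) and 0.01 for MMP1 (-1.51 and -1.55). Over all genes tested the median LR3 difference was 0.01.

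Among 4305 probe sets with no gene symbol or with several, which entered no comparison, 6 were lower and 7 higher past 2-fold with both inhibitors in parental cells with a signal above the floor.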

How the results depend on the processing

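Limma called 0 genes for the parental response and for the LR2 and LR3 differences under every alternative run: quantile normalization, centred arrays, the mean of all probe sets, probe sets of shared sequence left out, no filter or a stricter one, an intensity trend, each inhibitor array of the parental and LR2 lines left out in turn and, for the parental response, the parental arrays alone. Its smallest adjusted p ranged from 0.11 to 0.709 for the parental response, with 484 to 2401 genes at an unadjusted p under 0.05. It ranged from 0.476 to 1 for LR2 (57 to 1077 genes) and from 0.488 to 0.995 for LR3 (121 to 1069 genes). The lone inhibitor array left in a line is then assumed to vary like the others.

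The count of 114 agreeing genes was 459 at 1.5-fold (231 higher, 228 lower), 35 at 3-fold (5 higher, 30 lower) and 47 without probe sets of shared sequence (21 higher, 26 lower), where 48 of the 114 were present and 42 of those stayed past 2-fold. It was 83 (29 higher, 54 lower) with the mean of all probe sets, where 102 of the 114 were present and 75 of those stayed past 2-fold. Among named genes past 2-fold with both inhibitors none reversed. Named genes inside 2-fold were not checked for a change of sign. Without probe sets of shared sequence, the average difference of the inhibitors was -0.40 for EPHA4, -0.23 for PLAUR, -0.84 for CXCL2 and -0.97 for LIF. With the mean of all probe sets, VEGFA was at -0.93, MAFF at -0.98, WWTR1 at -0.95, NPTX1 at 0.90, BMF at 0.76, RNF144B at 0.89, CABLES1 at 0.92, LRIG1 at 0.98 and YPEL2 at 0.99, and FOS at -1.83. No paired analysis was possible because each condition has 1 array and the labels carry no replicate numbers. Genes at the floor have compressed differences, and signal over background limits what can be seen in the 7605 genes too dim to test.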
